A study of Mus musculus with 2 samples.

Results

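The Meg3 to Rtl1 antisense microRNAs are 10 hairpin genes on the plus strand of mouse chromosome 12 (mm10), in the imprinted Dlk1-Dio3 region. The rule that picks them names symbols and positions and no count, though it was written with earlier results of these data known. They are Mir770, Mir673, Mir493, Mir337, Mir540, Mir431, Mir433, Mir127, Mir434 and Mir136 in order of position. Of the 10, 9 had an entry of their own among the 1973 microRNA genes counted. Mir136 was not analysed under its own identifier, and the entry at its position is described separately. The data come from microRNA sequencing of hindbrain, the part of the brain that gives rise to medulla, pons and cerebellum, in healthy B6NCrl mouse embryos of both sexes, pooled at embryonic day 16.5. There was 1 group of 2 biological replicates and no other genotype, treatment or age. Replicate 2 was a pool of 37 embryos, and the size of the pool for replicate 1 is not given in the sources used here. As whole hindbrain was used, fewer cells of a type and less RNA per cell cannot be told apart.

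In the Dlk1-Dio3 region of mice, the maternal chromosome makes noncoding RNAs such as Meg3 and the transcript antisense to Rtl1, and microRNA hairpins are cut from them. The paternal chromosome makes protein-coding genes that include Rtl1, a gene derived from a retrotransposon that acts in placenta and muscle. MicroRNAs cut from the antisense transcript are fully complementary to the Rtl1 mRNA and in mouse can direct its cleavage. The region's microRNAs are known to be abundant in brain and placenta. Neither parental origin nor Rtl1 mRNA was measured here.

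The members fall into a group antisense to Rtl1, with Mir431, Mir433, Mir127, Mir434 and Mir136, and a group upstream of it on the transcribed strand, with Mir770, Mir673, Mir493, Mir337 and Mir540. Mir770 (chromosome 12, 109563692 to 109563785) lies inside Meg3. It is wholly within an exon of 1 of the 4 Meg3 transcripts that span it in GENCODE M21, and wholly within no exon of the others. Mir673, Mir493, Mir337 and Mir540 lie between Meg3 and Rtl1, in no exon of either. All 5 hairpins of the antisense group lie inside the coding part of the large Rtl1 exon, on the opposite strand. The mature sequences of the 5 most abundant members are shown because the counts below rest on them, and those of Mir136 because its position is overlapped by a second hairpin. They are from RefSeq (GRCm38.p6, plus strand, 5′ to 3′), with the seed, bases 2 to 8, in capitals. All 10 members were found in that table.

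miR-127-5p: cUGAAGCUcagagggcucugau
miR-127-3p: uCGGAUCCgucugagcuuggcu
miR-434-5p: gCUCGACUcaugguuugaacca
miR-434-3p: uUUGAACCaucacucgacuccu
miR-431-5p: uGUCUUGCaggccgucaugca
miR-431-3p: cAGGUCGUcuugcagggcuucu
miR-433-5p: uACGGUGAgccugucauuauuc
miR-433-3p: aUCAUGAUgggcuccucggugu
miR-770-5p: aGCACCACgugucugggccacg
miR-770-3p: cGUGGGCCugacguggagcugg
miR-136-5p: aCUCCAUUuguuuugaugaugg
miR-136-3p: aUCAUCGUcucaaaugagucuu

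The 20 mature sequences of the 10 members held 20 different seeds, so no seed was shared within the group. Only miR-673-5p and miR-540-3p shared a seed with another mouse microRNA in the table, miR-6985-3p and miR-6915-5p. Among all distinct mature sequences in the table, 27.5% shared their seed with another. None of the 20 was held by a second hairpin, against 3.23% of all distinct mature sequences. Counts were made per hairpin, so the 5p and 3p arms of a hairpin cannot be told apart.

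The antisense arrangement was visible base by base. The reverse complement of all 10 mature sequences of the antisense group was found without a mismatch in the 6358-base Rtl1 transcript of GENCODE M21, and that of 0 of the 10 mature sequences of the upstream group. The example shown is for miR-127-3p, 1 of the 2 arms of Mir127, the member with the highest count. The site lies at bases 2642 to 2663 of that transcript (chr12:109592888-109592909, minus strand). It is shown to be read against the miR-127-3p line above.

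Rtl1 site of miR-127-3p: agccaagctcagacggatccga

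Since Mir431 lies nearest to the end of Rtl1 and Mir136 nearest to its start, the sites run through the transcript from bases 164 to 185 for miR-136-3p to bases 5072 to 5092 for miR-431-5p.

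The Mir434 hairpin carried a repeat. The motif GGUUNGAACCA, searched on the hairpin strand only, occurred 4 times in it, shown in capitals (chr12:109594506-109594599, plus strand). It was found in 1 of 1005 mouse hairpins in the table, or 0.0995%, and that hairpin is Mir434 itself. The motif was chosen after the sequence was seen, as a word most repeated in this hairpin, so the hit in Mir434 was certain.

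Mir434 hairpin: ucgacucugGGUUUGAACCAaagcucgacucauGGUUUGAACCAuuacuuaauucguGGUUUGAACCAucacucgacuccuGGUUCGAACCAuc

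The sense counts on microRNA genes came to 5097205 for replicate 1 and 4460836 for replicate 2. Levels are counts per 1000000 of this total (CPM), per hairpin and not per base. A gene was called detected at 10 or more counts in each library, which held for all 9 counted members and for 19.5% of all listed genes. The microRNAs chosen as markers of hindbrain position, Mir10a and Mir10b, together had 100993 and 85868 CPM in replicates 1 and 2, and the neuronal Mir9-3, Mir124a-1 and Mir137 had 9646 and 7669 CPM, of which Mir124a-1 was near the minimum of 10 at 22 and 13 counts. Among markers of other cells, the skeletal muscle list (Mir206, Mir133b and Mir1a-1) summed to 375 CPM in the first library and 24.9 CPM in the second, with Mir1a-1 at 0 counts in both, which allows up to 0.589 and 0.673 CPM. Reads that fit several places in the genome went to no gene. The counts of every marker thus leave out any read shared with another hairpin. Whether the marker hairpins share a mature sequence with others was not checked. The low or absent counts of Mir124a-1 and Mir1a-1 are therefore not read as absence of the mature microRNA. Within the neuronal list Mir137 held 9157 and 7199 CPM in replicates 1 and 2, and Mir9-3 held 485 and 467 CPM. Marker sums are therefore not read as the total of a cell type. The epithelial list (Mir200c and Mir429) summed to 144 and 78.9 CPM. The remaining levels and sums differed less. The endothelial Mir126a had 27475 and 29178 CPM, and the smooth muscle list Mir143 and Mir145a had 7249 and 7289 CPM. The oligodendrocyte-lineage list Mir219a-2 and Mir338 summed to 2238 and 1892 CPM, and the erythroid list Mir451a and Mir144 to 182 and 174 CPM. Mir223 of leukocytes had 188 and 152 CPM, and Mir122 of liver had 41.0 and 41.9 CPM. Single genes within the oligodendrocyte-lineage and erythroid lists went opposite ways. Mir219a-2 had 1833 and 1463 CPM, and Mir338 had 405 and 428 CPM. Mir451a had 97.9 and 113 CPM, and Mir144 had 84.2 and 61.2 CPM.

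Together the 9 counted members held 2.33% ± 0.140 of all sense counts (SD, n = 2). The share was 2.23% in replicate 1 (exact binomial 95% interval 2.21% to 2.24%) and 2.42% in replicate 2 (2.41% to 2.44%), and these intervals do not overlap. The median level of the 9 was 1803 CPM, against 150 CPM over the 385 detected genes, and 7 of the 9 lay above that median. By mean level, 6 of the 9 were among the 100 most abundant genes, which are led by Mir99a at 166408 and 186988 CPM in replicates 1 and 2.

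**Figure D1:**
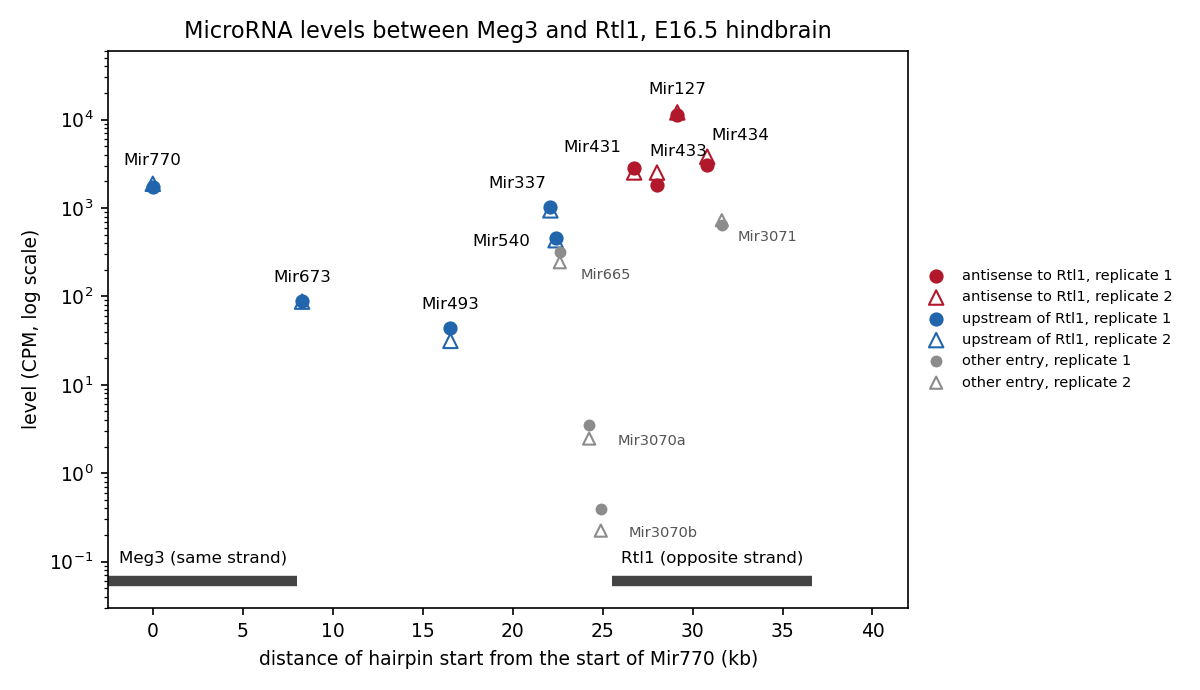
Level in CPM (log axis) of each counted member and of the other entries between them, against the distance of the hairpin from the start of Mir770 in kb; filled circles are replicate 1, open triangles replicate 2, red marks the group antisense to Rtl1, blue the upstream group, and grey bars show the extent of Meg3 (cut at the left) and Rtl1. The 4 counted antisense members sit between 1842 and 12037 CPM, while the upstream members spread from 31.4 to 1877 CPM; Mir432, at 0 counts, is not drawn.

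The antisense group supplied most of the counts. Mir127 (chromosome 12, 109592846 to 109592915), whose loss in mice leads to placental defects, had 11196 CPM in replicate 1 and 12037 CPM in replicate 2. It ranked 17th and 16th of all genes in the libraries and made up 50.0% ± 0.448 of the members' counts (SD, n = 2). Mir434 (109594506 to 109594599) followed with 3070 and 3802 CPM. Mir431 (109590447 to 109590537), which in mice is known from axon growth and muscle regeneration, had 2811 and 2521 CPM. Mir433 (109591715 to 109591838) had 1842 and 2512 CPM. In both libraries Mir127 was highest, followed by Mir434, Mir431 and Mir433.

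The upstream group ranged more widely. Mir770, the member inside Meg3, led it with 1729 and 1877 CPM in replicates 1 and 2, below the 1842 and 2512 CPM of Mir433. Mir337 (109585789 to 109585885) had 1024 and 939 CPM, and Mir540 (109586080 to 109586146), 194 bases further on, had 456 and 432 CPM. Both lay well above Mir673 (109571990 to 109572080), at 88.3 and 87.2 CPM, and Mir493 (109580233 to 109580315), at 44.3 and 31.4 CPM. Mir493 had 226 and 140 counts, so its exact binomial 95% intervals, 38.7 to 50.5 CPM and 26.4 to 37.0 CPM, are the widest relative to the level among the members. The order of the 9 members by level was the same in both libraries, though Mir431 and Mir433 were nearly equal in replicate 2. Mir127 exceeded Mir493 by a log2 ratio of 8.28 ± 0.43 (SD, n = 2).

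Summed over hairpins, the 4 counted antisense members had 18919 and 20873 CPM in replicates 1 and 2, and the 5 upstream members had 3342 and 3366 CPM. The antisense sum was higher in both libraries, with log2 ratios of 2.50 and 2.63 and a mean of 2.57 ± 0.09 (SD, n = 2), a 5.92-fold difference. Ratios were called different when both libraries gave 1 sign and the mean lay beyond 2 SD, and this ratio was called. No p is given, since with 2 libraries the smallest p of an exact sign-flip test is 0.5. The log2 ratio was 2.74 when counts were divided by hairpin length and 2.41 without Mir127 and Mir770. The GC contents of the groups overlapped, at 40.3% to 60.4% (median 56.5%) for the 5 antisense hairpins and 52.6% to 70.2% (median 61.2%) for the 5 upstream hairpins. Across the 9 counted hairpins, which share the same libraries, the Spearman correlation of level was -0.22 with GC content, 0.40 with predicted folding energy per base and 0.17 with length, given as a description. Folding energies are negative, so the positive value pairs higher levels with weaker predicted folding.

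Levels differed from one hairpin to the next along the chromosome. Of the 8 neighbouring pairs of counted members, 7 were called different by the same rule, as were 92.6% of the 365 pairs of neighbouring detected genes over all chromosomes, so the share is close to the background. Mir673 lay below Mir770, 8204 bases upstream of it, by a log2 ratio of -4.36 ± 0.10 (SD, n = 2). Mir337 lay above Mir493 by 4.72 ± 0.26 on the log2 scale, across 5473 bases. These are the widest steps of the 8 pairs.

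The remaining steps were smaller. Mir493 lay below Mir673 by -1.23 ± 0.34 (log2, SD, n = 2). Mir540 lay below Mir337 by -1.14 ± 0.03 (log2, SD, n = 2), and this ratio was the most even between the libraries, at -1.17 and -1.12. The step from the upstream to the antisense group, Mir431 over Mir540, was 2.58 ± 0.05 on the log2 scale. Mir127 exceeded Mir433 by 2.43 ± 0.24, and Mir434 lay below Mir127 by -1.76 ± 0.14 (log2, SD, n = 2). Mir433 over Mir431 was the pair not called, with a log2 ratio of -0.61 in replicate 1 and of -0.0051 in replicate 2. When members were ordered by level instead, neighbours from Mir434 through Mir431 and Mir433 to Mir770 did not differ beyond 2 SD, with mean log2 ratios of 0.36 ± 0.33, 0.31 ± 0.43 and 0.26 ± 0.23 (SD, n = 2).

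**Figure D2:**
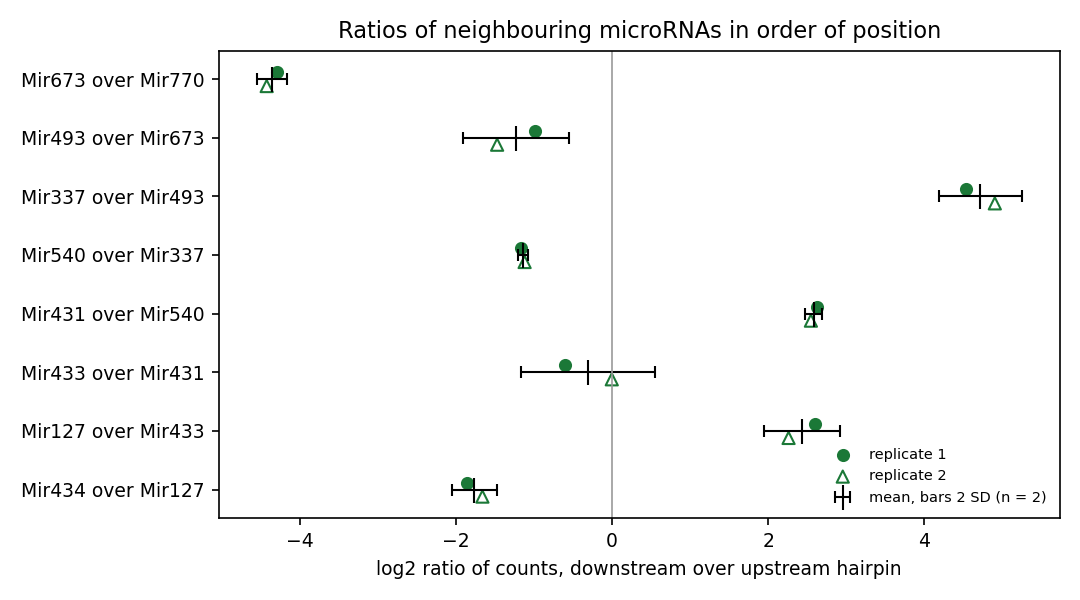
The log2 ratio of counts for each pair of neighbouring members in order of position, downstream over upstream hairpin; circles are replicate 1, triangles replicate 2, and black bars show the mean with 2 SD (n = 2). The bar crosses 0 only for Mir433 over Mir431, and Mir673 over Mir770 at -4.36 and Mir337 over Mir493 at 4.72 are the farthest from 0.

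Other hairpins lie among the members. Mir665 (109586314 to 109586407), just after Mir540, had 317 and 243 CPM in replicates 1 and 2, between Mir540 and Mir673. Mir3070a and Mir3070b, close copies with the same 5p mature sequence in the RefSeq table, had 18 and 11 counts and 2 and 1 counts, and their single levels are uncertain. Mir432, between Mir434 and Mir136 and inside the same Rtl1 exon, had 0 counts in both libraries, which allows up to 0.589 and 0.673 CPM. Just outside the members, Mir1906-1 on the Meg3 side had 0 and 1 counts, and Mir341 (109611500 to 109611595) on the far side had 885 and 1023 CPM. These counts leave out reads that fit several places, and whether Mir1906-1 shares sequence with another hairpin was not checked.

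At the position of Mir136, the tables list an entry that GENCODE M21 names Mir3071 and places on the minus strand (109595318 to 109595397). Mir136 (109595327 to 109595388) lies within it on the plus strand, under an identifier not analysed here. That entry had 3309 sense and 0 opposite-strand counts in replicate 1 and 3246 and 1 in replicate 2, or 649 and 728 CPM. The mature sequences of the 2 hairpins run over each other on opposite strands, as miR-3071-3p (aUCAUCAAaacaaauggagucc, minus strand) beside miR-136-5p above. The counts were made with the earlier release GENCODE M4, whose strand for this entry was not checked. That strand would tell whether the reads are from Mir136 or Mir3071, so their source is left unsettled here. With the entry counted as Mir136, the members held 2.39% of the counts and the antisense sum exceeded the upstream sum by 2.62 on the log2 scale.

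On the opposite strand, 8 of the 9 counted members had 0 reads in both libraries. Mir337 had 7 opposite-strand counts in replicate 1 and 2 in replicate 2, beside 5218 and 4190 sense counts. A hairpin named Mir3544 lies on that strand at the same place (109585813 to 109585873) and was not analysed here. At the 4 counted hairpins inside Rtl1, the strand of the Rtl1 mRNA thus held 0 reads, which allows up to 3 counts per library and hairpin in this size range. The genes of the distal list described below also had 0 opposite-strand reads, so this is not particular to the hairpins inside Rtl1. The entry at the position of Mir136, also inside Rtl1, is not among these 4, since its strand was not checked.

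Compared with the rest of the region, the members held a minor share. The distal list, the 39 other counted plus-strand microRNA genes of the region beyond Mir136, ended at 109747960 and held 9.23% ± 1.08 of all counts (SD, n = 2), against 2.33% for the members. Members over distal list gave log2 ratios of -1.93 and -2.04, with a mean of -1.99 ± 0.08 (SD, n = 2), called by the rule of 2 SD. Of all counts between Mir770 and the end of the distal list, the members held 20.6% in replicate 1 and 19.4% in replicate 2. The median level of the 9 members was 1803 CPM, against 429 CPM for the 33 distal genes that were detected. The lower sum of the members came with fewer genes, and the distal list was led by Mir487b at 36267 and 48966 CPM, above Mir127 in both libraries. Mir369, Mir382, Mir411 and Mir381 followed at 10979, 9012, 6929 and 4895 CPM on average, all below the 11617 CPM of Mir127.

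**Figure D3:**
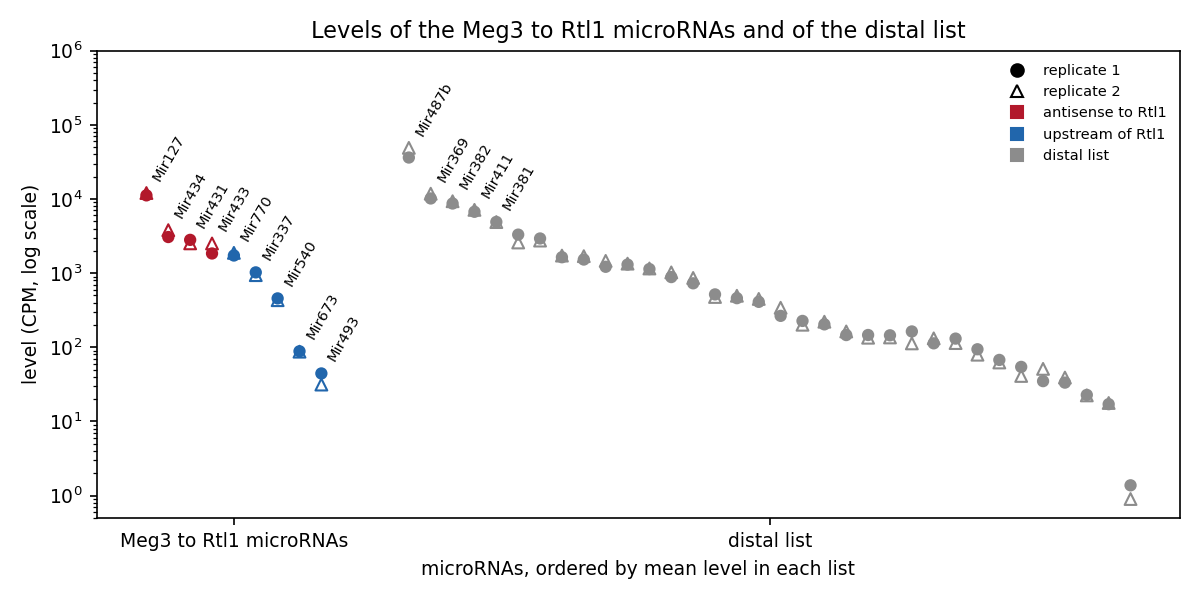
Levels in CPM (log axis) of the 9 counted members at the left and of the 34 distal genes with a count in both libraries at the right, each list ordered by mean level; circles are replicate 1 and triangles replicate 2. Mir127 lies above every distal gene except Mir487b in both libraries, and Mir493 and Mir673 lie among the lower distal genes.

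How far the members differed between the pools was tested for each gene by a two-sided exact binomial test, with TMM-scaled totals and Benjamini-Hochberg adjustment over all 401 genes tested. The test sets the difference between these libraries against counting noise and compares no conditions. Of the 9 counted members 6 passed, against 46.4% of all genes tested and 22 of the 33 distal genes tested. Genes with high counts pass at small differences, so the share over all genes is not a like comparison for abundant members. Of the 6 members that passed, 4 were higher in replicate 2 (21.9% of all genes) and 2 in replicate 1 (24.4% of all genes). The members' median log2 ratio of replicate 2 over replicate 1 was 0.05, against 0.14 for the distal list and -0.0029 over all genes tested. With an assumed biological coefficient of variation of 0.1 to allow for spread between pools, the exact test of edgeR called 0 of the 9, against 1.75% of all genes, with 1 of the 9 (Mir433) and 34 of all 401 genes at an unadjusted p under 0.05.

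In the antisense group Mir433 differed most, with 11207 counts in replicate 2 and 9388 in replicate 1, a log2 ratio of 0.51 (exact binomial 95% interval 0.47 to 0.55, adjusted p = 1.48e-141). Mir434 followed with 16959 and 15649 counts in replicates 2 and 1 (log2 ratio 0.37, interval 0.34 to 0.40, adjusted p = 3.37e-119 by the same test). Mir127 had 53697 and 57070 counts in replicates 2 and 1 (0.17, interval 0.15 to 0.19, adjusted p = 1.47e-83). Mir431 went the other way, with 11247 counts in replicate 2 and 14328 in replicate 1 (-0.09, interval -0.13 to -0.06, adjusted p = 1.67e-06). Of the 4 counted antisense members, 3 were thus higher in replicate 2 and 1 in replicate 1.

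In the upstream group Mir770 was higher in replicate 2, at 8371 counts against 8815 in the deeper replicate 1 (log2 ratio 0.18, interval 0.14 to 0.23, adjusted p = 7.87e-16 by the exact binomial test). Mir493 was higher in replicate 1, with 140 counts in replicate 2 and 226 in replicate 1 (-0.43, interval -0.75 to -0.12, adjusted p = 0.0128). Mir673 (0.05), Mir337 (-0.06) and Mir540 (-0.02) did not pass. Mir337 passed, at -0.12, when the totals were left unscaled, a setting under which 48.1% of all genes passed; with unstranded counts 47.2% did. The muscle and epithelial marker sums were higher in replicate 1, as given above, and their part in these differences was not tested.

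**Figure D4:**
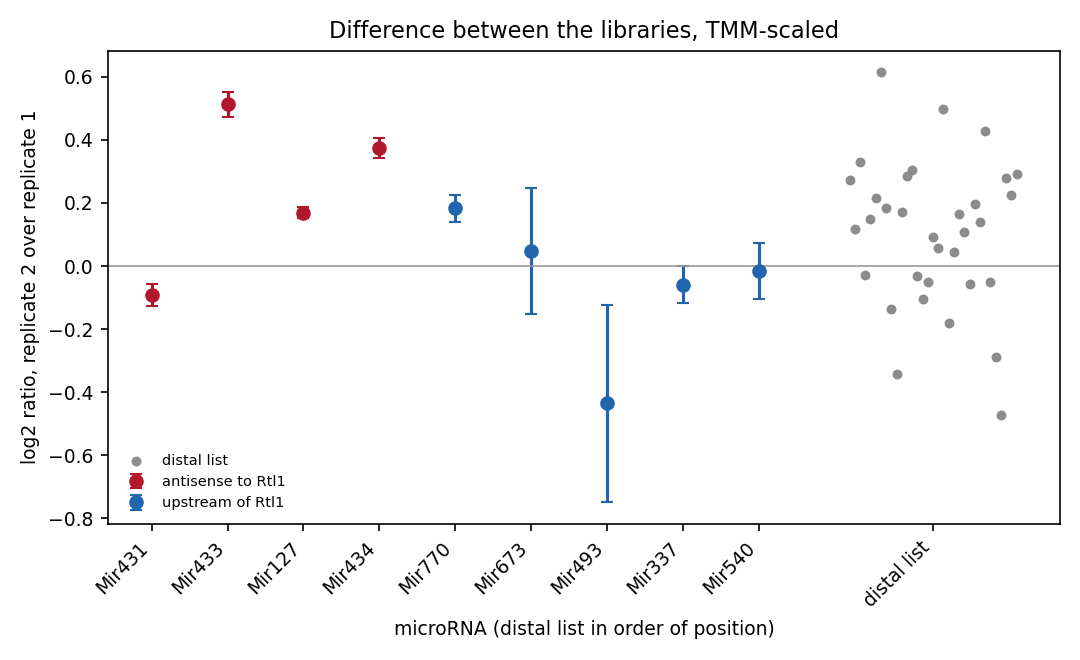
The log2 ratio of replicate 2 over replicate 1 after TMM scaling, for the antisense members (red) and the upstream members (blue) with exact binomial 95% intervals, and for the 33 tested genes of the distal list (grey, in order of position). Members range from -0.43 for Mir493 to 0.51 for Mir433, within the distal list's range of -0.47 to 0.61.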

How the data were processed

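The authors deposited raw counts of reads for each microRNA gene, made on mm10 with GENCODE M4 per the text beside each table; aligner and counter: not given in the sources used here. A table holds a column for either strand and for each strand alone. The column with 97.6% of assigned counts in both libraries was taken as sense. The 4 summary lines name no gene and were left out of totals; multimapping reads (34.5% of the reads of replicate 1 and 35.1% of those of replicate 2) are assigned to no gene. Identifiers without version were matched to GENCODE M21 (1894 of 1973). The labels put both libraries in 1 group and state a size limit of 30 nt.

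CPM is per 1000000 sense counts. A count of 0 was read as up to 3 counts. Intervals are exact binomial (95%) and, like these limits, cover counting error only. The 2 libraries were compared by an exact binomial test on the genes whose counts summed to 20 or more, at an adjusted p of 0.05, checked on simulated data; edgeR's quasi-likelihood test could not be fitted with 1 library a side. Mir136 left 8 of the 9 planned neighbouring pairs. Folding energy is the RNAfold minimum. Named are all 10 members, the other entries between them, the nearest entries outside them, the 5 most abundant distal genes and the markers. The nearest entries and the repeat in Mir434 were added after values were seen. Mir142, a listed leukocyte marker, was not used here. Members and lists were chosen with earlier results of these data known. Alternatives were unstranded counts, other totals and scalings (TMM of edgeR, DESeq2), count minimums, hairpin length, lists without their leading gene, each replicate alone, an assumed coefficient of variation of 0.1 and, as an addition made with the data in view, the Mir3071 entry counted as Mir136. Python 3.11.15, scipy 1.17.1, pandas 2.3.3, matplotlib 3.10.9, R 4.3.3, edgeR 4.0.16, DESeq2 1.42.0 and RNAfold 2.7.2 were used.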

Additional observations from a re-analysis of the deposited data

Results flagged for a closer look

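Reads on the opposite strand, a column outside the main measurement, came to 7 counts at Mir337 in replicate 1, above the limit of 3 that a count of 0 allows, and to 2 in replicate 2, under it. Mir3544 is annotated on that strand. Over all genes the opposite strand held 125700 counts beside 5097205 sense counts in replicate 1, and 111380 beside 4460836 in replicate 2. These are larger shares than at Mir337, and the origin of its opposite-strand reads was not tested.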

How the results depend on the processing

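The antisense over upstream ratio and the members over distal ratio kept their direction under every alternative run. They kept their call under those that use both libraries. The number of neighbouring pairs called stayed at 7 of 8 with unstranded counts and per hairpin base. Among the members, unstranded counts add only the 7 and 2 opposite-strand counts of Mir337, so that alternative could hardly change these results. Each replicate alone gave 2.50 to 2.63 for the antisense over upstream ratio and -2.04 to -1.93 for members over distal on the log2 scale. A called ratio has 1 sign in both libraries, so the direction in each replicate alone was fixed by the call. The summed share of the members was 2.83% with Mir99a left out of the total and 1.32% with multimapping reads added, and the median member level was 2191 and 1027 CPM, because these totals are smaller or larger. Unstranded counts and TMM and DESeq2 scaling left both within 1 SD. Either replicate alone always lies within 1 SD of a mean of 2, so that alternative could not move them. Under edgeR's exact test at a coefficient of variation of 0.1, the members called were 0 in all, 0 higher in replicate 2 and 0 higher in replicate 1, because this test allows for more spread. Plain totals shift all log2 library ratios by -0.06 and turned Mir673 to -0.018 (adjusted p = 0.933 by the exact binomial test, 0.728 to 1.0 over its alternatives). Mir337 passed with plain totals (adjusted p = 0.000105) and with DESeq2 size factors (adjusted p = 0.0257, exact binomial test), with 0.000105 to 1.0 over its alternatives. No paired analysis was possible because the series has 1 group. Depth limits Mir493 most, and Mir136 has no value of its own.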
